A study of Mus musculus with 4 samples.

Results

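Ly6 genes encode small proteins that a glycosylphosphatidylinositol (GPI) anchor holds on the outer face of the cell, and they were described here in PMN-MDSCs (polymorphonuclear myeloid-derived suppressor cells), the neutrophil-like cells of tumour-bearing animals that hold back T cells. The group was given by name as 7 genes, Ly6g, Ly6c1, Ly6c2, Ly6a, Ly6e, Ly6d and Ly6i, and 6 of them had a row among the 18751 distinct gene names of the count table. No row carries the name Ly6i, which was not analysed here. The filter on low counts passed 5 of the 7 and left out Ly6c1, against 7685 names passed in all. There were 4 libraries, 2 from wild-type (WT) C57BL/6 mice and 2 from C57BL/6 mice labelled CD300ld KO, which by their label lack CD300ld, a CD300 family receptor on myeloid cells. All mice were 8 weeks old and had received B16-F10 cells, a mouse melanoma line, under the skin 15 days earlier. The cells were enriched magnetically with a neutrophil kit, and the labels name neither the organ nor the part of the gene that was removed. The labels do not tie each library to an animal of its own, so the tests reflect only how far these libraries differ, which may be technical.

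Mature Ly6 proteins are built around a compact three-fingered fold shared with the urokinase receptor and CD59. In mouse blood, Ly6G marks neutrophils, and Ly6C, the product of Ly6c1 and Ly6c2, is high on inflammatory monocytes and lower on neutrophils. PMN-MDSCs are usually gated as CD11b+ Ly6G+ cells with low Ly6C, and the antibody called Gr-1 binds Ly6G and also Ly6C. Ly6a encodes Sca-1, the stem cell antigen of haematopoietic progenitors, which lymphocytes also carry, Ly6e encodes a broadly expressed antigen, and Ly6d marks early B-lineage progenitors. Transcription of Ly6a, Ly6e and the Ly6c genes can be raised by interferons.

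The libraries summed to between 674599 and 920839 counts. The target Cd300ld was counted 0 and 11 times in WT, and 2 and 3 times in KO, too few to check the labels. A list of 13 neutrophil genes, here called the neutrophil granule list, was present in every library. It holds mostly granule proteins, with the calprotectin chains S100a8 and S100a9 and the transcription factor Cebpe. The list took 4.11% and 4.72% of counts in WT and 0.721% and 0.714% in KO. Erythroid markers took 15.3% and 16.4% in WT and 20.9% and 19.7% in KO. The preparation was therefore mixed, and in such bulk samples fewer cells of a type and less RNA per cell cannot be told apart. Across all genes tested, 459 of 7685 passed an adjusted p of 0.05 in edgeR's quasi-likelihood test (5.97%), 251 lower (3.27%) and 208 higher (2.71%) in KO.

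Of the 5 tested Ly6 genes, 2 were lower in KO, Ly6g and Ly6c2, and 0 were higher, where 3.27% of all genes tested were lower. Ly6a, Ly6e and Ly6d did not pass the threshold. The median log2 fold change over the 5 was −0.33, against 0.0025 over all genes tested. KO and WT libraries did not overlap in 4 of the 5, the exception being Ly6e, and 48.2% of all genes tested were separated in that way.

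**Figure D1:**
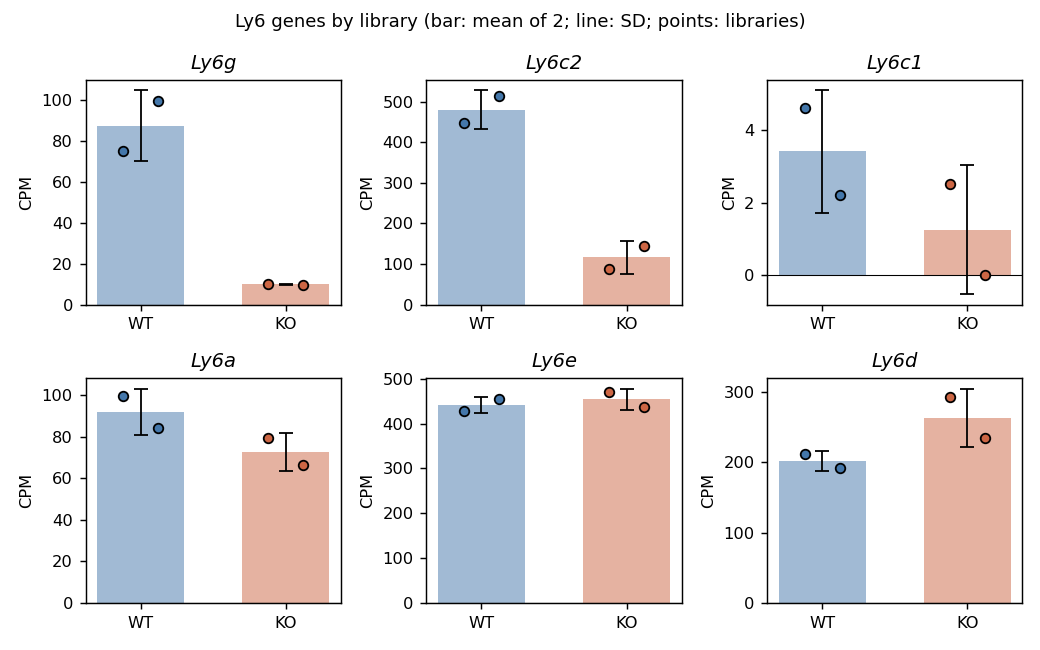
Scaled counts (CPM, vertical axes, each panel on its own scale) of the 6 Ly6 genes in WT and KO libraries; bars are the mean of 2 libraries, lines the SD and points the libraries. Ly6g and Ly6c2 stand far lower in KO, at 9.87 and 117 CPM on average, Ly6e overlaps between genotypes, and Ly6c1 rests on 0 to 3 counts per library.

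Ly6g, the defining surface marker of mouse neutrophils, was counted 49 and 90 times in the WT libraries and 8 times in each KO library. Scaled for library size and composition (CPM), this was 75.3 and 99.7 in WT and 10.1 and 9.66 in KO. Both KO libraries lay far below both WT libraries. Ly6g fell by 3.14 ± 0.39 (log2 scale, SE, n = 2 each, adjusted p = 8.54e-05 in edgeR), with a 95% interval of −3.96 to −2.32, and stood 8.81-fold lower in KO. Of all 7685 genes tested, 0.39% had a lower fitted log2 fold change. Because the KO value rests on 16 counts in all, its precision is limited by counting: the ratio of summed KO counts to summed WT counts was 0.11 (exact 95% interval 0.0613 to 0.185), which covers counting error only.

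Ly6c2, the Ly6C gene with nearly all of the Ly6C counts in these libraries, was counted 291 and 464 times in WT, and 70 and 120 times in KO. These corresponded to 447 and 514 CPM in WT and 88.2 and 145 CPM in KO. The groups did not overlap, and in proportion the KO libraries differed from each other more than the WT libraries did. Ly6c2 fell by 2.04 ± 0.21 (log2 scale, SE, n = 2 each, adjusted p = 1.13e-05 in edgeR), with a 95% interval of −2.48 to −1.60, a 4.12-fold lower level. Ly6c1, its near copy, was counted 3 and 2 times in WT, and 2 and 0 times in KO, too few to test. The same ratio for Ly6c1 was 0.383 (exact 95% interval 0.0365 to 2.34), and the count of 0 allows up to 3.62 CPM in KO library 2. In the KO libraries there were 0.114 and 0.0667 Ly6g counts per Ly6c2 count, and in the WT libraries 0.168 and 0.194.

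How reads were shared between these copies bears on both values. In GENCODE M21 transcripts the coding sequences of Ly6c1 and Ly6c2 were 97.7% identical, and 48.4% of the 36-base stretches of the Ly6c2 transcript also occur in transcripts of other genes, most of them in Ly6c1. For Ly6c1 that share was 51.2%. The counting method is not given in the sources used here, so the split of counts between Ly6c1 and Ly6c2 is uncertain. Ly6g is better separated: 6.51% of its stretches occur in other genes, although its coding sequence is 79.8% identical to that of Ly6c1, 78.3% to Ly6c2 and 83.2% to Ly6a. Ly6a shared 18.4% of its stretches, Ly6e 0.445% and Ly6d 0, and the coding sequences of Ly6e and Ly6d were 47.1% to 53.8% identical to those of any other of the 7 genes.

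The kinship extends to the promoters, which are shown because Ly6g and Ly6c2 were both lower in KO, while few counts were assigned to Ly6c1, which lies beside them. RefSeq windows of 300 bases, from 250 before to 50 after a transcript start, were found for 3 of the 7 genes. Where a gene had several starts, the window most alike among the genes is given. Capitals mark GAGGAAGT, the core of sites bound by the myeloid ETS factor PU.1, on the strand shown.
Ly6g: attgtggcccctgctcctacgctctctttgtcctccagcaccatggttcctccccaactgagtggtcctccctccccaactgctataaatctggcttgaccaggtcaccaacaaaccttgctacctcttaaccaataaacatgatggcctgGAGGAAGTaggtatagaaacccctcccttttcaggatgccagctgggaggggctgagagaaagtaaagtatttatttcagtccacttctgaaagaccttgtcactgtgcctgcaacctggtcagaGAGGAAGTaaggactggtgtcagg
Ly6c2: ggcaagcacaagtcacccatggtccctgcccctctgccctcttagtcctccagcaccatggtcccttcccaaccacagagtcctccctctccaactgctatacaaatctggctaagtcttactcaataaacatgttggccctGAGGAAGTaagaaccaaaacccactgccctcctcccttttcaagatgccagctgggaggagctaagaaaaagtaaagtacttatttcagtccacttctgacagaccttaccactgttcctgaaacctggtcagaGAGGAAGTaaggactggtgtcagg
Ly6c1: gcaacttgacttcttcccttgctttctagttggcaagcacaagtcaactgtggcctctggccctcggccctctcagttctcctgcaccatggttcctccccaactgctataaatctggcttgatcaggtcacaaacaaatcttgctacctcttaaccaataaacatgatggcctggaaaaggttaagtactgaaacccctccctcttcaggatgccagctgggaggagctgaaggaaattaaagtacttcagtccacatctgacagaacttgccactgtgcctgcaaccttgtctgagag
In build GRCm38.p6 these are chr15:75155079-75155378 on the plus strand for Ly6g, chr15:75111922-75112221 on the minus strand for Ly6c2 and chr15:75048788-75049087 on the minus strand for Ly6c1. Over the bases that align, Ly6g was 85.7% identical to Ly6c2 and 87.4% to Ly6c1, and Ly6c1 78.2% to Ly6c2. Because the windows were picked for likeness, that choice favours high identities. GAGGAAGT was sought on both strands, and its first base lay at positions −99 and 27 from the start in Ly6g and at −108 and 27 in Ly6c2. The Ly6c1 window shown holds 0 whole matches, and its edge cuts one: the window of its other start holds 1 match, of which the first 3 of 8 bases are the last 3 of the window shown. With the windows of the other start of each gene, Ly6g and Ly6c1 hold 1 match each and Ly6c2 holds 2, so the number of matches depends on the window and does not set Ly6c1 apart. Of 32851 such mouse promoter windows, 3.2% hold GAGGAAGT, a motif chosen after the sequences were seen. The TATA box letters TATAAA occur once in the Ly6g and Ly6c1 windows and not in that of Ly6c2, against 13.6% of all windows. A C/EBP motif, the core of the interferon-stimulated response element and a STAT motif were in none of the 3 windows, against 10.8%, 3.44% and 8.3% of all windows. GAGGAAGT does not overlap any of the other motifs found. A match describes letters and does not show that a factor binds there.

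Ly6a, encoding Sca-1, was counted 65 and 76 times in WT, and 63 and 55 times in KO, or 99.9 and 84.2 CPM against 79.3 and 66.4 CPM. The KO libraries lay below the WT libraries by less than the WT libraries differed from each other. The log2 fold change was −0.33 ± 0.25 (SE, adjusted p = 0.551 in edgeR), with a 95% interval of −0.87 to 0.21. Ly6e was counted 279 and 410 times in WT, and 374 and 363 times in KO, or 429 and 454 CPM against 471 and 438 CPM. The Ly6e libraries of the genotypes overlapped. Its log2 fold change was 0.04 ± 0.15 (SE, adjusted p = 0.926), with a 95% interval of −0.27 to 0.35. For both genes a change of 4-fold, such as that of Ly6c2, lies outside the interval, and smaller changes do not all.

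Ly6d, which marks early B-lineage progenitors among other cells, was counted 138 and 173 times in WT, and 232 and 194 times in KO. In CPM this was 212 and 192 in WT and 292 and 234 in KO. Both KO libraries were above both WT libraries, by a margin smaller than the gap between the KO libraries. The log2 fold change was 0.39 ± 0.18 (SE), with an unadjusted p of 0.0494, an adjusted p of 0.264 in edgeR and a 95% interval of 0.0012 to 0.77. Ly6d therefore did not pass the threshold over all genes.

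**Figure D2:**
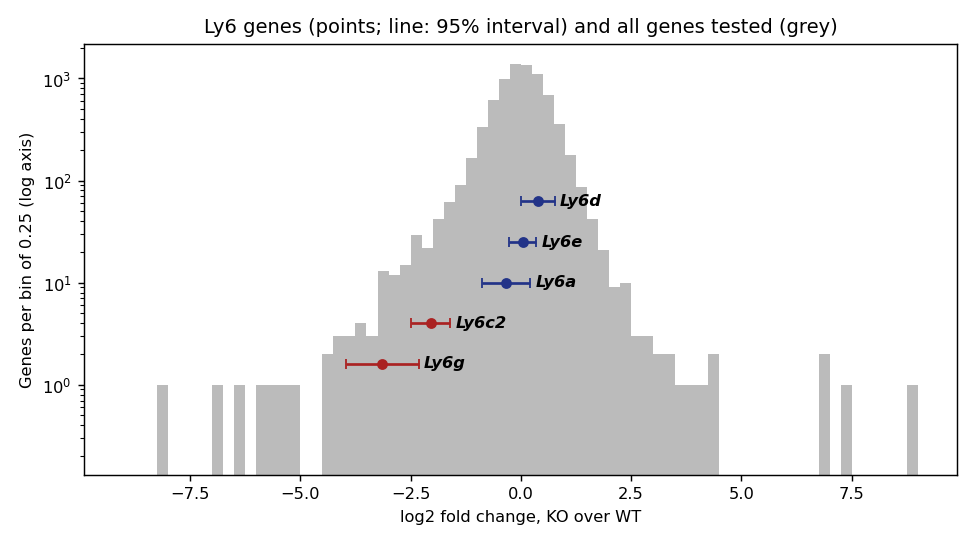
Log2 fold change, KO over WT (horizontal axis), of the 5 tested Ly6 genes as points with 95% intervals, over a histogram of all 7685 genes tested (grey; genes per bin of 0.25 on a log axis); the height of the points carries no value. Ly6g at −3.14 and Ly6c2 at −2.04 (red, past the threshold) lie in the lower tail, and Ly6a, Ly6e and Ly6d (blue) near the centre.

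The make-up of the Ly6 message differed with genotype. Summed over the 6 genes the WT libraries held 825 and 1215 counts, and the KO libraries 749 and 740. Ly6c2 gave 35.3% and 38.2% of these in WT and 9.35% and 16.2% in KO. Ly6g gave 5.94% and 7.41% in WT and 1.07% and 1.08% in KO. Ly6e, the broadly expressed member, gave 33.8% and 33.7% in WT and 49.9% and 49.1% in KO, and Ly6d 16.7% and 14.2% against 31.0% and 26.2%. The shares of Ly6e and Ly6d were thus higher in KO while their CPM did not pass the test.

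**Figure D3:**
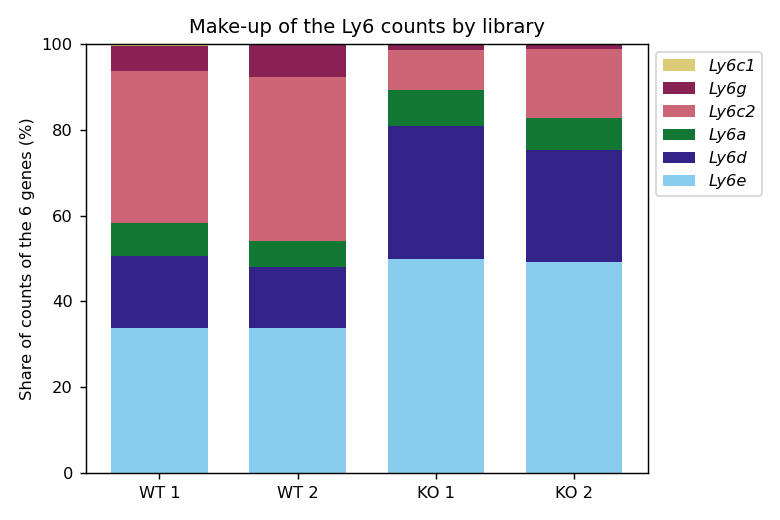
Share of the counts of the 6 Ly6 genes (vertical axis, %) given by each gene, 1 bar per library. Ly6c2 and Ly6g, the upper coloured blocks, shrink from 35.3% to 38.2% and 5.94% to 7.41% in WT to at most 16.2% and 1.08% in KO; Ly6c1 is too small to see.

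Between genes, levels were set side by side as CPM per kb of transcript. In WT Ly6c2 was the most abundant, at 544 and 625 CPM per kb, followed by Ly6d at 285 and 258 and Ly6e at 188 and 199. Ly6a, at 105 and 88.2, and Ly6g, at 80.0 and 106, overlapped in WT. In KO the order was led by Ly6d, at 393 and 315 CPM per kb, then Ly6e at 207 and 192 and Ly6c2 at 107 and 176. Ly6a followed at 83.1 and 69.5, and Ly6g stood apart at 10.7 and 10.3 CPM per kb. Ly6c1 was last in both genotypes, at 5.46 CPM per kb or less. This scale depends on the transcript chosen, which for Ly6e is 2281 bases long and for the others 744 to 955, and counts in this table did not rise with length: the median count per gene was 13.2 among the 3435 genes with the shortest transcripts and 6.25 among the 3433 with the longest.

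Ly6g had the lowest fitted log2 fold change, −3.14, when set beside a list of neutrophil surface and maturity genes, and its interval of −3.96 to −2.32 covers the values of the nearest of them, Ceacam10 and Cd177. Of its 26 tested members, 12 were lower and 0 higher (median log2 fold change −0.91). Cd177, another GPI-anchored neutrophil antigen, fell by 2.66 ± 0.17 (log2 scale, SE, adjusted p = 3.00e-08 in edgeR), Trem3, an activating receptor of myeloid cells, fell by 2.44 ± 0.28 (adjusted p = 4.13e-05), Itgam, the CD11b chain that is gated together with Ly6G, fell by 2.11 ± 0.25 (adjusted p = 4.98e-05), and Mmp9, gelatinase B, fell by 1.85 ± 0.19 (adjusted p = 1.12e-05). In contrast, Csf3r, the G-CSF receptor, had −0.17 ± 0.29 (adjusted p = 0.832). Some members that were not called had values above 0, among them Clec4d at 1.62 ± 0.61 (adjusted p = 0.145) and Trem1 at 0.47 ± 0.37 (adjusted p = 0.562). Counts of Ly6g per count of Csf3r were 1.07 and 1.38 in WT and 0.131 and 0.19 in KO, whereas per 1 count of S100a8, a cytosolic calprotectin chain of neutrophils, they were 0.00668 and 0.00877 in WT and 0.00644 and 0.00615 in KO. The ratio to S100a8 differed far less between the genotypes than that to Csf3r, and both ratios were lower in both KO libraries. Csf3r and S100a8 were chosen for this comparison with their values known. In the same libraries all 13 neutrophil granule genes were lower, with a median of −2.56; the part of granulocyte numbers in the Ly6g result was not tested.

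**Figure D4:**
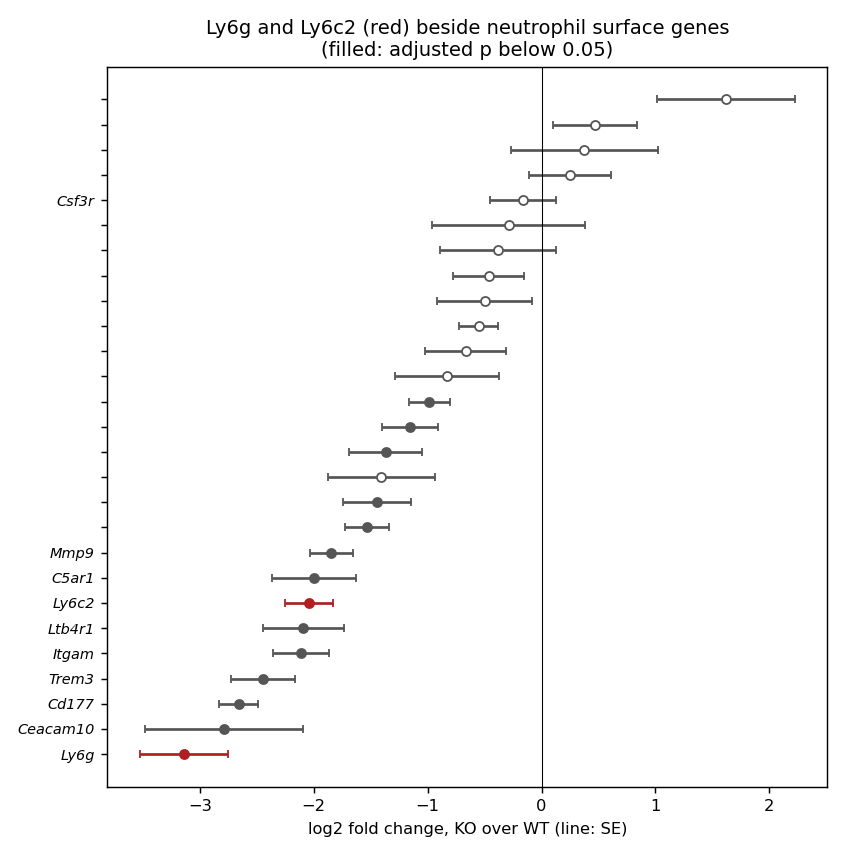
Log2 fold change, KO over WT (horizontal axis, lines SE), of Ly6g and Ly6c2 (red) and 25 tested neutrophil surface and maturity genes (grey), ordered by size. Names are given for most of those in the text, and filled points have an adjusted p below 0.05. Ly6g lies at the end of the order with −3.14, Ly6c2 beside Ltb4r1 and C5ar1 near −2, and Csf3r near 0.

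Ly6c2 was read beside monocyte and macrophage markers, since Ly6C is highest on monocytes. Of 10 tested monocyte markers, 2 were lower and 0 higher (median log2 fold change −0.59). F13a1, coagulation factor XIII A of monocytes, fell to 32.2 ± 13.2 CPM in KO, against 128 ± 43.6 CPM in WT (mean ± SD, n = 2 each, adjusted p = 0.00118 in edgeR), and Ms4a6c fell by 1.77 ± 0.36 (log2 scale, SE, adjusted p = 0.00617). Ccr2, the chemokine receptor of the Ly6C-high monocyte, was counted 29 and 37 times in WT, and 21 and 15 times in KO, a log2 fold change of −0.94 ± 0.41 (adjusted p = 0.223). Other monocyte markers had log2 fold changes above 0 without being called. Cd14 had 0.66 ± 0.28 (adjusted p = 0.211) and Cx3cr1 0.47 ± 0.55 (adjusted p = 0.729). The summed level of the 12 monocyte markers ran from 866 to 1127 CPM in WT and from 747 to 792 CPM in KO, and 0 of the 12 were at 0 in either genotype. Of 10 tested macrophage markers, 4 were lower, with a median of −0.99, and Vcam1, an adhesion molecule, had the smallest p among them and fell by 1.21 ± 0.22 (adjusted p = 0.00235), whereas Emr1, encoding F4/80, had the lowest log2 fold change of the 4, −1.53 ± 0.42 (adjusted p = 0.0415). The summed level of the 12 macrophage markers in the table was 966 and 912 CPM in WT and 427 and 536 CPM in KO. The part of monocytes and macrophages in the Ly6c2 result was not tested.

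Many interferon-inducible genes tested were lower in KO, and the Ly6 genes known to respond to interferon differed among themselves. In the type I interferon list, 12 of 23 tested members were lower and 0 higher (median log2 fold change −1.03). Rsad2, encoding viperin, fell by 1.14 ± 0.12 (SE, adjusted p = 1.69e-05 in edgeR), Oas3, an oligoadenylate synthetase, fell by 1.72 ± 0.20 (adjusted p = 5.41e-05), and Ifitm3, a membrane protein that hinders viral entry, fell by 1.54 ± 0.18 (adjusted p = 6.43e-05). Ly6c2, at −2.04, lay below that median, and Ly6a and Ly6e, at −0.33 and 0.04, lay above it. The intervals of Ly6a and Ly6e, −0.87 to 0.21 and −0.27 to 0.35, do not reach −1.03.

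The small difference in Ly6d was set beside lymphoid markers. Of 12 tested B-lineage markers, 0 passed the threshold, with a median log2 fold change of 0.30. Ighm, the immunoglobulin μ chain, had 0.37 ± 0.12 (SE, adjusted p = 0.0755 in edgeR) and Cd79a, a chain of the B cell receptor, 0.39 ± 0.16 (adjusted p = 0.203). The list did not move as one: Ms4a1, encoding CD20, had −0.0060 ± 0.20 (adjusted p = 0.993), and Ebf1, a B-lineage transcription factor, −0.32 ± 0.44 (adjusted p = 0.778). Of the early B-lineage markers, Vpreb1, a surrogate light chain gene, had 0 or 1 count in each library, and Igll1, Rag1 and Rag2 were not analysed here. The summed level over 13 B-lineage markers was 4561 and 5309 CPM in WT and 5970 and 6553 CPM in KO. Ly6d is also carried by plasmacytoid dendritic cells. Of 7 tested markers of these cells 1 was higher, Siglech, which rose by 1.22 ± 0.30 (adjusted p = 0.0204), with a median of 0.32. These markers did not all point upward: Bst2 had −0.42 ± 0.33 (adjusted p = 0.553) and Spib −0.014 ± 0.28 (adjusted p = 0.988). Igj, the joining chain of plasma cells, which rose by 0.56 ± 0.14 (adjusted p = 0.0210), was the 1 called gene among 6 tested plasma cell markers (median 0.09). Of 18 tested T and NK cell markers, which can go with Ly6a and Ly6c2, 1 was lower, Nkg7, which fell by 1.78 ± 0.31 (adjusted p = 0.00186), and the median was 0.37. The part of these cells in the Ly6d and Ly6a values was not tested.

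Stem and progenitor cells and endothelium also carry Ly6a. Of 14 stem and progenitor markers 3 were tested and 0 called, with a median log2 fold change of −0.42. Kit, the stem cell factor receptor, had 0.17 ± 0.30 (SE, adjusted p = 0.836 in edgeR) and Cd48, a leukocyte antigen, −0.94 ± 0.32 (adjusted p = 0.111). Of 4 tested endothelial markers 0 were called, with a median of 0.07, and Eng and Pecam1 had 0.25 ± 0.34 (adjusted p = 0.772) and 0.16 ± 0.38 (adjusted p = 0.888). The 15 tested erythroid markers, 9 of them higher and 0 lower (median 0.47), include Car1, a carbonic anhydrase, which rose by 1.15 ± 0.14 (adjusted p = 1.01e-04). Of the eosinophil and basophil markers only Ccr3 was tested, with −2.36 ± 0.82 (adjusted p = 0.113), and of the B16 melanoma markers 2 had rows and 0 were tested.

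The wider Ly6 and urokinase receptor family was sparse in these libraries. Of 38 other family genes, 11 had a row and 2 passed the filter, of which 0 were called. Plaur, the urokinase receptor of neutrophils and monocytes, was counted 35 and 77 times in WT, and 25 and 49 times in KO, with a log2 fold change of −0.63 ± 0.35 (SE, adjusted p = 0.360 in edgeR). Cd59a, an inhibitor of the complement attack complex, was counted 19 and 27 times in WT, and 28 and 31 times in KO, with 0.30 ± 0.39 (adjusted p = 0.767). Ly6k, a gene of the same chromosome 15 cluster, had 3 counts in each WT library and 4 in each KO library, and Ly6g5b, of the family's second cluster on another chromosome, 1 and 4 in WT and 0 in KO.

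By a measure of likeness, the Euclidean distance between mean-centred log2 CPM over the 4 libraries, the genes nearest to Ly6g were Slfn4, an interferon-inducible schlafen gene (distance 0.135), Anxa3, an annexin of neutrophil granules (0.218), and S100a8 (0.272). Slfn4 had 48 and 95 counts in WT and 9 in each KO library, almost the counts of Ly6g itself. Nearest to Ly6c2 were Ltb4r1, the leukotriene B4 receptor (0.197), Cybb, the catalytic subunit of the NADPH oxidase (0.322), and Serpinb1a, an inhibitor of neutrophil serine proteases (0.342). The nearest genes to Ly6a were Ube2f, Celf2 and Ccng1 (distances of 0.053 or less), to Ly6e Lsm4, Stk4 and Rpl39 (0.037 or less) and to Ly6d Luc7l3, Ncaph and Ppp2ca (0.044 or less). With 4 libraries many genes lie close to a flat profile, so the short distances of Ly6a, Ly6e and Ly6d describe little beyond that.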

How the data were processed

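RNA sequencing counts from 4 PMN-MDSC libraries were used. Per the labels' protocols, RNA came from Trizol extraction and was made into TruSeq libraries. The authors deposited these as raw read counts by gene name, with no normalization. Per the submitters' processing notes Bowtie 0.12.2 was used, with builds mm8 and mm9 in no stated role; the counting program, read length and strand use are not given in the sources. The table's 21831 rows held 18751 distinct names, 205 of them on several rows with identical values, and each name was kept once. Column names give the genotype and not the sample, so library numbers are only names.

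The fit used edgeR 4.0.16 in R 4.3.3 (TMM scaling, filterByExpr, quasi-likelihood test of KO against WT, Benjamini-Hochberg over all genes tested). The filter asked for 15 counts in total. It also asked for a CPM equal to 10 counts at the median library size, in as many libraries as a genotype has. The SE is the log2 fold change divided by the square root of F. CPM uses TMM-scaled totals of the tested genes. The procedure was tested on simulated data. Members, lists and named genes were chosen with earlier results of these data known. The text names the 7 genes, up to 4 called genes of each list by p or its 2 most abundant where none was called, and the 3 genes nearest to each tested member among those in the upper 75% by level; log2 CPM for that used a prior count of 2. Genes named outside this rule are Csf3r, Ccr2, C5ar1, Emr1, Ms4a1, Ebf1, Vpreb1, Cd24a, Ly6k and Ly6g5b, chosen after their values were seen; 1 other list gene is not reported here. Alternatives were RLE scaling, no scaling, no filter, at least 1 CPM in 2 libraries, the tools DESeq2 1.42.0 and limma-voom (limma 3.58.1), leaving out each library and, added after the data were seen, leaving out haemoglobin and mitochondrial genes. GENCODE M21 gave transcript sequences and gene order, and RefSeq the promoters. Intervals of log2 fold changes come from the fit and include its estimate of the spread between libraries. Exact intervals of count ratios, and floors, cover counting error only.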

Additional observations from a re-analysis of the deposited data

How the results depend on the processing

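Ly6g and Ly6c2 stayed lower in KO and past the threshold in every alternative run, from −3.34 to −2.92 and from −2.45 to −1.74 on the log2 scale. Ly6a and Ly6d kept their direction and did not pass in any of them. Ly6e, near 0 throughout, lay between −0.025 and 0.093 with a library left out, turning sign without KO library 1 (−0.025) and without WT library 1 (−0.019). The ratio of Ly6c1 counts ran from 0 without KO library 1 to 0.783 without KO library 2, which shows only that it rests on 7 counts. Of all genes tested, DESeq2 called 299 against 459 in edgeR; the cause was not tested. The fits without 1 library called 412 to 538 and assume that the lone library varies like the others. The alternatives on filters, DESeq2 and limma-voom were not run for Ly6c1, whose ratio uses no fit. No paired analysis was possible because the labels and columns give no number that pairs a WT with a KO library. Depth limits Ly6c1, and Ly6g in KO, the most.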

Other observations

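Among genes that build the GPI anchor of Ly6 proteins, 20 of 31 were tested, 1 was higher and 0 were lower in KO, with a median log2 fold change of −0.11. Pigq, a subunit of the first enzyme of anchor synthesis, rose by 0.87 ± 0.14 (SE, adjusted p = 7.74e-04 in edgeR), counted 320 and 469 times in WT, and 776 and 719 times in KO. Of 12 tested genes listed as other GPI-anchored leukocyte proteins, 3 were lower and 0 higher, with a median of −0.32. Whether each listed protein carries the anchor was not checked here. Beside Cd177 the genes called lower were Ceacam10 and Cd52. Ceacam10 fell by 2.79 ± 0.70 (adjusted p = 0.0222), on 14 and 35 counts in WT and only 1 and 6 in KO. Cd52, a small lymphocyte and myeloid antigen, fell by 0.90 ± 0.17 (adjusted p = 0.00424). Cd24a, the most abundant of the 12, had 0.32 ± 0.11 (adjusted p = 0.103) and was named after its value was seen.

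Along chromosome 15 the 7 genes follow each other in the order Ly6d, Ly6e, Ly6i, Ly6a, Ly6c1, Ly6c2 and Ly6g, in GENCODE M21, so that the genes called lower lie at the same end. Of the 10 nearest tested genes on either side of them, 20 in all, 2 were higher and 1 was lower in KO, with a median of −0.04. Over all genes tested, 2.71% were higher and 3.27% lower. Grina, encoding a membrane protein, rose by 0.78 ± 0.13 (adjusted p = 0.00107) on the Ly6g side. On the Ly6d side Ptp4a3, a phosphatase gene, rose by 0.68 ± 0.19 (adjusted p = 0.0440) and Ndrg1, a stress-responsive gene, fell by 4.14 ± 0.90 (adjusted p = 0.00934). The Ndrg1 value rests on a KO mean of only 1.26 CPM, against 24.3 CPM in WT, so its size is poorly fixed.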
